A study of Mus musculus with 3 samples.

Results

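The genes described here are the heat shock protein and DnaJ chaperone genes of mouse muscle stem cells (MuSC), the stem cells of skeletal muscle. They were chosen by symbol alone, as every gene named Hspa, Hspb, Hspd, Hspe, Hsph or Hsp90 with its number or letter code and every gene whose symbol starts with Dnaj. This gave 70 genes of the 18193 genes that an Affymetrix MOE_430_2 array read through at least 1 probe set (a group of probes against 1 transcript) assigned to a single gene. The 70 genes had 169 such probe sets, and the brightest probe set of a gene, by its mean over the arrays, stood for that gene. A further 2 genes with such symbols, Dnajc19 and Dnajc19-ps, were named solely on probe sets shared by several genes and were not used. The constitutive HSP90 gene Hsp90ab1 had no probe set of its own in the annotation used here.

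MuSC were FACS-sorted as CD34+ α7 integrin+ cells from digested muscle of wild-type C57BL/6 mice aged 8 weeks. By the study's methods, CD45, CD11b, CD31 and Sca1 mark the cells that the sort removes. Total RNA was amplified from the 3′ end. Fresh MuSC were taken directly after sorting, without culture. MuSC −OSM were cultured for 3 days in 10% FBS, and MuSC +OSM for the same 3 days in 10% FBS with 100 ng/mL oncostatin M (OSM), a cytokine of the IL-6 family. The cultured cells are also called the −OSM culture and the +OSM culture below. Each condition is 1 array here, so no difference has a replicate check and no test was made. The study describes its OSM data as a mean over biological replicates, and how the single arrays relate to that mean is not stated there.

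Chaperones bind unfolded or partly folded proteins and keep them from aggregating. HSP70 proteins cycle between an open and a closed form as they bind and hydrolyse ATP. DnaJ proteins, also called HSP40 or J proteins, bring clients to HSP70 and trigger hydrolysis, and the HSP110 proteins release the ADP. HSP90 acts on later folding steps, the chaperonins Hspd1 and Hspe1 fold proteins within mitochondria, Hspa5 and Hsp90b1 serve the endoplasmic reticulum, and small heat shock proteins (Hspb) hold unfolded clients without using ATP. Some of these genes are induced by heat shock factor under heat or other stress, others are always on, and several small heat shock proteins are known chiefly from striated muscle.

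Promoter sequence is shown first because it is where heat-inducible and constitutive members are known to differ. RefSeq promoter windows on GRCm38.p6, each with 250 bases before a start site and 50 bases after it, were at hand for 57 of the 70 members and for 27025 genes in all. The heat shock element was searched as 3 inverted units, GAANNTTCNNGAA or TTCNNGAANNTTC, on both strands. It was present in 4 of 57 members, or 7.02%, and in 0.662% of all genes with a window. The 4 members were the mitochondrial chaperonin genes Hspd1 and Hspe1, the HSP110 gene Hsph1 and the J protein gene Dnajb6. A shorter form with 2 units, GAANNTTC or TTCNNGAA, which every 3-unit match contains, was added after the values were seen. It lay in 8 of 9 members of a heat-inducible list, in 1 of 17 members of a constitutive list and in 4587 of all 27025 genes, or 17%. The windows below come from 3 heat-inducible genes, a constitutive one and a small heat shock protein gene, with the matched units in capitals.
Hspa1a, chr17:34972157-34972406, minus strand: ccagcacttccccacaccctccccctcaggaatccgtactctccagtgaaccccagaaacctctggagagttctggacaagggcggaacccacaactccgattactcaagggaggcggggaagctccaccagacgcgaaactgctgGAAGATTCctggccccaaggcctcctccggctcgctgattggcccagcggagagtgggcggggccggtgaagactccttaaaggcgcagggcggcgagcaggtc
Hspb1, chr5:135887757-135887874, plus strand: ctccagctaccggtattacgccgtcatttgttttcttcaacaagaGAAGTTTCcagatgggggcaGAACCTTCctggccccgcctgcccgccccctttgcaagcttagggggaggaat
Hspe1, chr1:55088014-55088121, plus strand: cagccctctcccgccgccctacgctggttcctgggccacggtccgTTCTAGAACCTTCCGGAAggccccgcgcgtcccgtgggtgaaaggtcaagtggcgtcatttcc
Dnajb6, chr5:29735807-29735897, plus strand: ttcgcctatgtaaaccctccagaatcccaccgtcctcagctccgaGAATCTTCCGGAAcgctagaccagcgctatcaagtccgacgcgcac
Hspb3, chr13:113663848-113663926, minus strand: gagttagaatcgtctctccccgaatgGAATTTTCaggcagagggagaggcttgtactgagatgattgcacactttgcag

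Every sequence runs 5′ to 3′ on the strand of its gene. The capitals of Hspe1 hold a pair of overlapping 3-unit matches, and the same bases serve the neighbouring gene Hspd1 on the other strand, since the windows of these genes overlap by 285 bases. In Hspa1a the unit pair lay at −104 to −97 from the start site. Hspa1a and Hspa1b, which lie next to each other, differed at 3 of 250 upstream bases. Their probe and transcript sequences were not compared here, so how far the probe sets separate these closely related genes was not tested. The heat shock element counts above are of genes, not of separate sites. The bases shared by Hspd1 and Hspe1 count for both genes, as does the same match in Hspa1a and Hspa1b. Of the heat-inducible genes with a window, Dnajb1 was the one without the shorter match, and Hsp90aa1 had no window. A match describes letters in the window and is neither a bound site nor a cause, and a missing match says nothing about the factor.

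The endoplasmic reticulum (ER) stress element, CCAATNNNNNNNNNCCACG on either strand, was found in 37 of 27025 genes, or 0.137%, and in 3 members. They were Hspa5, Hsp90b1 and Dnajc3, all of the ER. The windows of Hspa5 and Hsp90b1 are shown because, as given below, Hspa5 differed between the arrays by over 2-fold and Hsp90b1 did not.
Hspa5, chr2:34771980-34772088, plus strand: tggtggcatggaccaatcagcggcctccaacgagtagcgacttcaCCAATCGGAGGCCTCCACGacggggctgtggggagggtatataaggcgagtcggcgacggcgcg
Hsp90b1, chr10:86705488-86705694, minus strand: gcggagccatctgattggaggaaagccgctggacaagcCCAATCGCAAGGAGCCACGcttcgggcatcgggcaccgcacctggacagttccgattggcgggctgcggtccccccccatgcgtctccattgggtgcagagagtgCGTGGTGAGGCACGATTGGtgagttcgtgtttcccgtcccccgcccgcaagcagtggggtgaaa

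**Figure D1:**
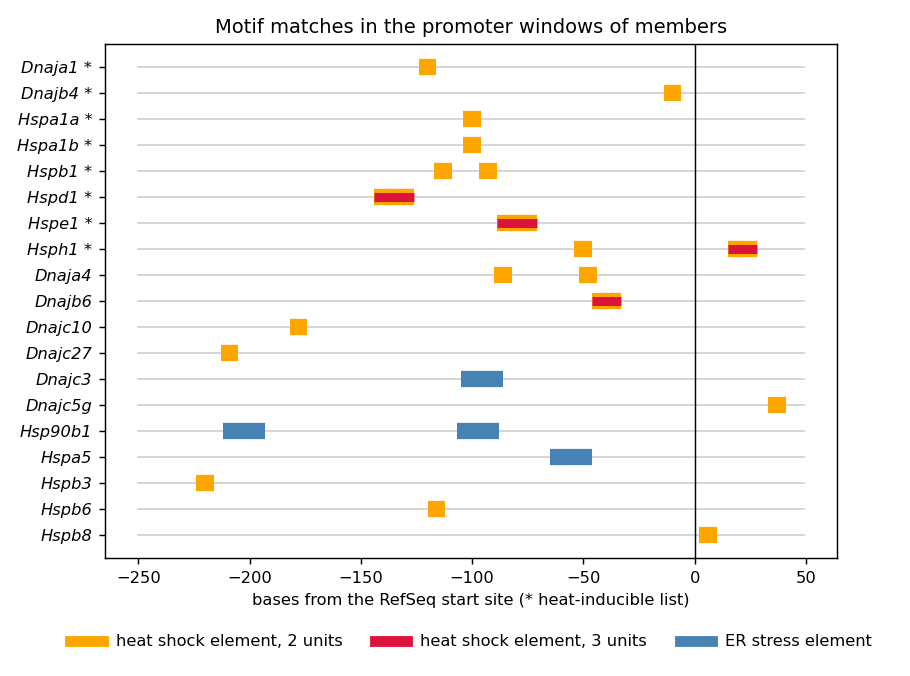
Positions of motif matches in the promoter windows of members with at least 1 match, in bases from the RefSeq start site, with an asterisk for the heat-inducible list. Bars mark 2-unit (orange) and 3-unit (red) heat shock elements and ER stress elements (blue), and the 8 heat-inducible genes each hold an orange bar.

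The array values are MAS5 signals, a linear intensity that the authors scaled to the same trimmed mean on every array. Signals under a floor of 40 were raised to it before a log2 ratio was taken, a gene counted as measured if either array of a pair was above it, and higher or lower means at least 2-fold. The fresh array differed in shape from the others, with a median signal of 53 against 36 in the −OSM culture and 32 in the +OSM culture, and its β-actin 3′ to 5′ ratio was 2.35 against 1.40 and 1.41. The satellite cell marker Pax7 had signals of 4006, 282 and 431 in fresh MuSC, the −OSM and +OSM cultures, Myf5 had 7016, 561 and 1855, Cdh15 had 898, 569 and 698, and Itga7 had 499, 1808 and 1238. Cd34, used in the sort, had 2222 in fresh MuSC and was under the floor in both cultures. All 19 immediate early genes read, which respond within minutes to handling, digestion and other stimuli, were higher in fresh MuSC than in the −OSM culture, and their summed signal was 215559, 14249 and 18748 in the same order. Among them Fos had 29074, 527 and 1233, Egr1 had 33947, 4005 and 5036, and Atf3 had 10687, 277 and 176. Summed signals of 8 fibroblast markers were 28155, 2446 and 8418, of 8 endothelial markers 1272, 168 and 145 and of 8 leukocyte markers 1375, 215 and 231, and none of these markers was listed at 0. Most of the fresh fibroblast sum was Col3a1, at 13247, 2249 and 7683, and Dcn, at 12179, 32 and 373, whereas Pdgfra had 140, 17 and 43. Col3a1 was also most of that sum in both cultures. Most of the fresh endothelial sum was Tek, at 791, 42 and 25. Most of the fresh leukocyte sum was Lyz2, at 1204, 13 and 13, whereas the defining leukocyte marker Ptprc (CD45) had 1, 2 and 7. For 10 muscle fibre markers the summed signals were 11816, 116496 and 63705. The part of cell handling, RNA quality or these other cell types in the chaperone values was not tested. In RNA of a whole sample, fewer cells of a type and less RNA per cell cannot be told apart.

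Fresh MuSC differed from the −OSM culture in chaperone genes in both directions. Of 60 measured members, 8 were higher in fresh MuSC, or 13.3%, against 20.4% of all 12755 measured genes. A further 11 members, or 18.3%, were lower, against 15.0% of all genes. The median log2 ratio of members was −0.26, that of all genes 0.14. Centring the arrays on their medians moved the median of all genes to −0.37 and the split of members to 6 higher and 24 lower, against 11.9% and 28.1% of all genes. The members that were high or low differed in function, with 4 heat-inducible genes among the 8 higher and 5 small heat shock proteins among the 11 lower.

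Few members differed by 2-fold between the +OSM and −OSM cultures, but most had less signal with OSM as scaled by the authors. Counts at 1.5-fold, given in the last section, also held more lower than higher members. None of 59 measured members was higher, against 6.07% of all 11271 measured genes. The 4 lower members were 6.78% of those measured, against 4.39% of all genes, and all 4 were small heat shock proteins. The median log2 ratio of members was −0.19 and that of all genes −0.01, with 41 members below 0 and 18 above. Against fresh MuSC, 9 of 60 members were higher in the +OSM culture, or 15%, against 13.8% of 12483 genes, and 12, or 20%, were lower, against 17.2%. With arrays centred on their medians this split became 24 higher and 5 lower, against 33.7% and 8.23% of all genes. After quantile normalization it was 11 and 10, against 17.1% and 14.1% of all genes. The comparisons share arrays, so they are not independent of each other.

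**Figure D2:**
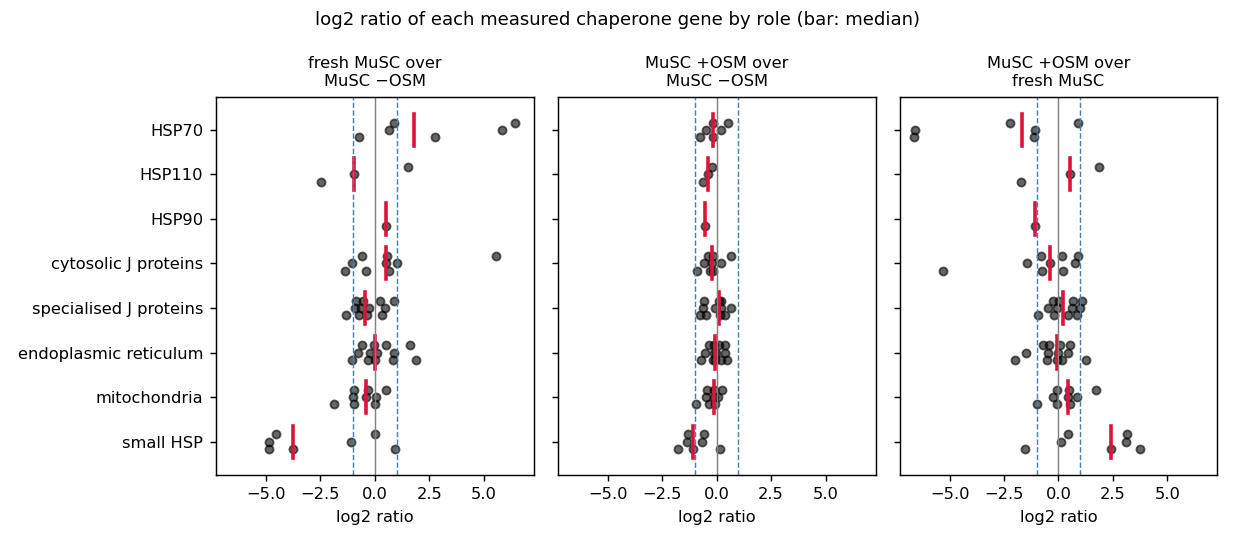
Log2 ratio of every measured member (grey points) by role in 3 comparisons, with the median of each role as a red bar and 2-fold as dashed lines. Points spread past 2-fold on both sides where fresh MuSC enter, while with and without OSM the small heat shock proteins (median −1.09) alone hold points past 2-fold.

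Among heat-inducible chaperone genes, the inducible HSP70 genes Hspa1a and Hspa1b, the J protein gene Dnajb1 and the HSP110 gene Hsph1 were higher in fresh MuSC. Of 10 genes listed as heat-inducible, 4 were higher in fresh MuSC than in the −OSM culture and 0 were lower, against 20.4% and 15.0% of all genes. The median log2 ratio was 0.80. With OSM 0 were higher and 0 lower than without (median −0.22), against 6.07% and 4.39% of all genes. In the +OSM culture 6 were lower than in fresh MuSC (median −1.30), against 17.2% of all genes. With arrays centred on their medians, 3 of these 6, namely Hsp90aa1, Hspb1 and Hsph1, were under 2-fold. Hspa1a, an inducible HSP70, had a signal of 23145 in fresh MuSC, 267 in the −OSM culture and 236 in the +OSM culture. It was 86.7-fold higher in fresh MuSC than in the −OSM culture, and 13 of 12755 measured genes had a larger ratio. Its near-identical neighbour Hspa1b had signals of 31030, 541 and 322, a 57.4-fold difference between fresh MuSC and the −OSM culture, and its other probe sets gave 37.4-fold and 25.3-fold. Both inducible HSP70 genes were thus high on the fresh array and low on both cultured arrays, and OSM left them at a log2 ratio of −0.18 for Hspa1a and −0.75 for Hspa1b.

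Dnajb1, the main inducible J protein partner of HSP70, had signals of 19768 in fresh MuSC, 425 in the −OSM culture and 493 in the +OSM culture. Fresh MuSC were 46.5-fold above the −OSM culture. A weaker probe set of Dnajb1 gave 12874, 726 and 1107, or 17.7-fold, so the fresh array stood apart on this one too. Hsph1, an HSP110 that reloads HSP70 with ATP, had 11513, 4048 and 3495 and was 2.84-fold higher in fresh MuSC, although with arrays centred on their medians the ratio was 1.93-fold. Hspb1, the small heat shock protein HSP27 that binds actin and unfolded clients, had 16334, 8531 and 5624. At 1.91-fold it stayed under the 2-fold limit, and the +OSM culture was 2.90-fold below fresh MuSC. The other probe set of Hspb1 gave 14053, 6136 and 4729, or 2.29-fold higher in fresh MuSC than in the −OSM culture, past the limit. The other probe set of Hsph1 gave 9452, 2337 and 2736. The fresh array was thus the highest for Hsph1 and Hspb1, and the order of the cultures for Hsph1 differed between its probe sets.

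Smaller differences were seen in the other heat-inducible genes. Hsp90aa1, the stress-responsive cytosolic HSP90, had signals of 19517 in fresh MuSC, 13775 in the −OSM culture and 9386 in the +OSM culture. Dnaja1, a farnesylated J protein of the cytosol, had 6887, 4830 and 4122, and the J protein gene Dnajb4 had 4927, 3122 and 2818. The log2 ratios of fresh MuSC to the −OSM culture were 0.50, 0.51 and 0.66 for these 3 genes as scaled by the authors. Centring on array medians made them −0.055, −0.046 and 0.10, so no direction is given for them. The chaperonin genes were close to equal in fresh MuSC and the −OSM culture. Hspd1 (HSP60) had 4009, 4043 and 3819, all within 1.06-fold, and its partner Hspe1 (HSP10) had 4342, 4221 and 2219. Among genes with a 3-unit heat shock element, the log2 ratio of fresh MuSC to the −OSM culture was −0.01 for Hspd1, 0.04 for Hspe1, 1.51 for Hsph1, whose match lies after the start site, and 1.02 for Dnajb6, on which probe sets disagree. For Hspa1a, with a 2-unit match, it was 6.44.

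Of the constitutive list 21 genes were measured, and 17 of them had less signal in fresh MuSC than in the −OSM culture, 2 of these by 2-fold (Dnaja2 and Dnajc2), while 1 gene was higher (Dnajb6). As given below, probe sets of all 3 genes disagree. The median log2 ratio of the constitutive list was −0.62, and of all genes 20.4% were higher and 15.0% lower. These calls are as scaled by the authors. With arrays centred on their medians, more of the list was 2-fold lower in fresh MuSC than in the −OSM culture. Among these were Dnajb2, Dnajc8 and Dnajc24, at log2 ratios of −1.15, −1.18 and −1.48, while Dnajb6 fell under 2-fold at 0.46. Of all genes 28.1% were lower after centring. As scaled by the authors, 0 of the list were higher and 0 lower with OSM than without (median −0.38). In the +OSM culture 1 was higher and 1 lower than in fresh MuSC (median 0.43). Centring put Dnajc14 and Dnajc24 past 2-fold higher in that comparison, at 1.36 and 1.15, against 33.7% of all genes. The median of the heat-inducible list was 1.42 above that of the constitutive list in fresh MuSC over the −OSM culture on the log2 scale, 0.16 above it in the +OSM culture over the −OSM culture and −1.72 from it in the +OSM culture over fresh MuSC. These gaps do not depend on how an array is centred. Those with fresh MuSC depend on how the list is drawn. With the 5 genes Hspa1a, Hspa1b, Hsph1, Dnajb1 and Hspb1 alone they were 6.16 and −5.75. These 5 are the genes of the heat-inducible list with the highest ratios of fresh MuSC to the −OSM culture. The lists were drawn with earlier results known, so these wider gaps are no separate evidence.

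**Figure D3:**
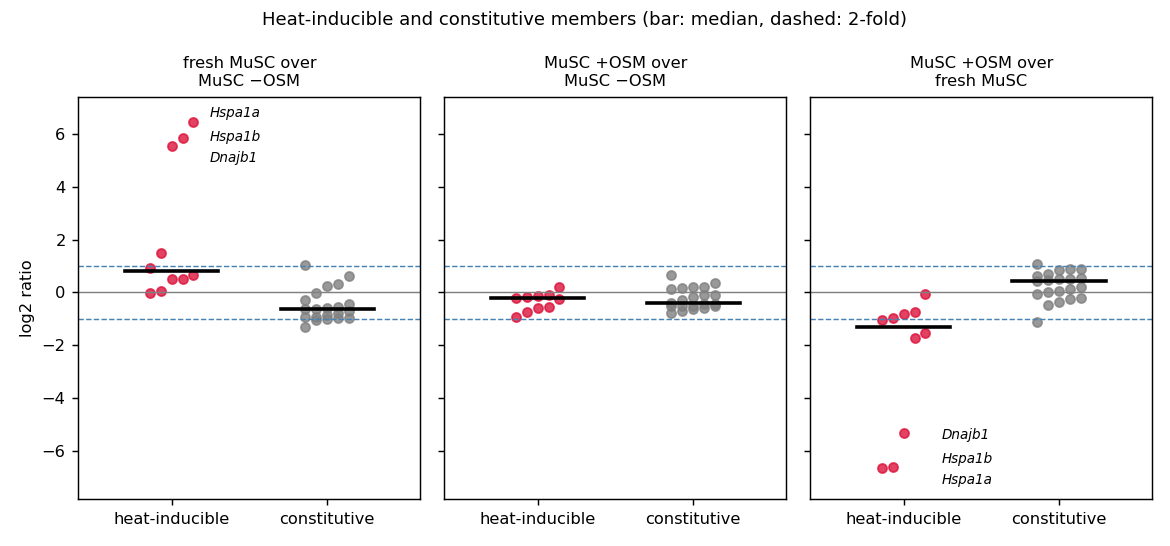
Log2 ratios of heat-inducible (red) and constitutive (grey) members in 3 comparisons, 1 point per gene, with the median as a black bar and 2-fold as dashed lines. Hspa1a, Hspa1b and Dnajb1 stand past 5 in fresh MuSC over the −OSM culture, while in the +OSM culture over the −OSM culture no point of either list reaches 2-fold.

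Among HSP70 genes that are not heat-inducible the arrays differed in several ways. Hspa8, the constitutive HSP70 (HSC70), had signals of 31630 in fresh MuSC, 20458 in the −OSM culture and 14427 in the +OSM culture. Its other probe sets gave 8168, 9014 and 9132, then 17642, 12884 and 9953, and last 1883, 196 and 174. Hspa8 thus read between 1.10-fold lower and 9.61-fold higher in fresh MuSC than in the −OSM culture, depending on the probe set. Hspa12a, a distant HSP70 relative, had 690, 103 and 149 and was 6.70-fold higher in fresh MuSC. Hspa2, known from the testis, had 345, 188 and 165, and Hspa14, which sits at the ribosome, had 365, 596 and 680. The HSP110 genes Hspa4 and Hspa4l ran against Hsph1 of the same class. Hspa4 had 1869, 3589 and 2682. Its other probe sets above the floor gave 304, 1040 and 330, then 495, 2093 and 1408. These were 3.42-fold and 4.23-fold lower in fresh MuSC than in the −OSM culture, and the first was 3.15-fold lower with OSM. Hspa4l had 167, 936 and 602, or 5.60-fold lower in fresh MuSC. All 5 probe sets of Hspa4l were lower in fresh MuSC than in the −OSM culture, the other 4 by 2.05-fold to 3.06-fold.

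Genes of the ER chaperone system were divided, with Hspa5 standing apart. Hspa5 (BiP), the HSP70 of the ER and a marker of ER stress, had signals of 26133 in fresh MuSC, 7147 in the −OSM culture and 6561 in the +OSM culture, a 3.66-fold difference between the first 2. Hsp90b1 (GRP94), the HSP90 of the ER, had 6157, 6063 and 5870. Both promoters hold the ER stress element shown above, and of the pair Hspa5 alone was higher in fresh MuSC. A second probe set of Hspa5 gave 21479, 5865 and 5299, and a weak one gave 790, 760 and 458. Dnajc3, the third gene with the element and an inhibitor of the stress kinase PERK, had 1521, 847 and 1107, under 2-fold as scaled by the authors. After quantile normalization it was 2.03-fold higher in fresh MuSC than in the −OSM culture. Its other probe sets ran from 1.40-fold lower (653, 916 and 725) to 2.45-fold higher (675, 275 and 414) in that comparison.

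The other ER members were mostly similar across arrays. Dnajb9 (ERdj4), which helps remove misfolded proteins, had 2523, 1760 and 1548 in fresh MuSC, the −OSM and +OSM cultures. Dnajb11 (ERdj3), which binds clients of Hspa5, had 491, 1014 and 1163 and was 2.07-fold lower in fresh MuSC, opposite to Hspa5 itself. Dnajc25 had 567, 184 and 199 and was 3.08-fold higher. The HSP70 relative Hspa13 had 1086, 585 and 756, and the disulfide reductase gene Dnajc10 had 589, 559 and 785. Dnajb12, Dnajb14, Dnajc1, Dnajc16 and Dnajc18, J proteins anchored in membranes, had signals between 107 and 575. By the probe set used and as scaled by the authors they showed no 2-fold difference. The other probe sets of Dnajc1 were weaker and read 1.14-fold to 2.42-fold higher in fresh MuSC than in the −OSM culture, against its main one. The direction of Dnajc1 is thus not settled. Another probe set of Dnajb14 gave 94, 142 and 199, or 2.12-fold higher in the +OSM culture than in fresh MuSC. After centring on array medians Dnajb14 and Dnajc16 passed 2-fold lower in fresh MuSC, at −1.33 and −1.17 on the log2 scale, and after quantile normalization at −1.15 and −1.02. Over all 13 ER members 2 were higher and 1 lower in fresh MuSC than in the −OSM culture (median log2 ratio 0.02), and 0 differed with OSM (median −0.08). Of all genes 20.4% were higher and 15.0% lower in fresh MuSC. Of 13 ER stress and folding genes outside the family, 1 was higher in fresh MuSC and 0 were lower. That gene, Ddit3 (CHOP), a transcription factor of ER stress, had 409, 154 and 159. Xbp1, another such factor, had 4948, 2847 and 4424.

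By the probe set used for each gene, several mitochondrial chaperone genes had less signal in fresh MuSC, by just under 2-fold. Hspa9 (mortalin), the HSP70 that drives protein import, had signals of 2586 in fresh MuSC, 5026 in the −OSM culture and 4678 in the +OSM culture. Another bright probe set of Hspa9 gave 2431, 3407 and 2778, or 1.40-fold lower in fresh MuSC than in the −OSM culture. Weaker ones gave 242, 486 and 296 and, in the other direction, 85, 47 and 82. The J protein partner of Hspa9, Dnaja3, had 413, 823 and 604. Another probe set of Dnaja3 gave 231, 228 and 338, close to equal in fresh MuSC and the −OSM culture. Dnajc15, an inner membrane J protein, had 200, 725 and 668 and was 3.63-fold lower in fresh MuSC, the only one of 9 measured mitochondrial members past 2-fold as scaled by the authors. Dnajc11, of the outer membrane, had 311, 605 and 427. With arrays centred on their medians Hspa9, Dnaja3 and Dnajc11 passed 2-fold too, at log2 ratios of −1.52, −1.55 and −1.52 to the −OSM culture. Dnajc4, Dnajc28 and Dnajc30 had signals between 58 and 333 and differed by at most 1.41-fold between fresh MuSC and the −OSM culture. The nucleotide exchange factor gene Grpel1, which works with Hspa9 and is not a member, had 448, 1589 and 1156 and was 3.55-fold lower in fresh MuSC. The median over the 9 mitochondrial members was −0.40 in fresh MuSC over the −OSM culture and −0.12 in the +OSM culture over the −OSM culture.

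**Figure D4:**
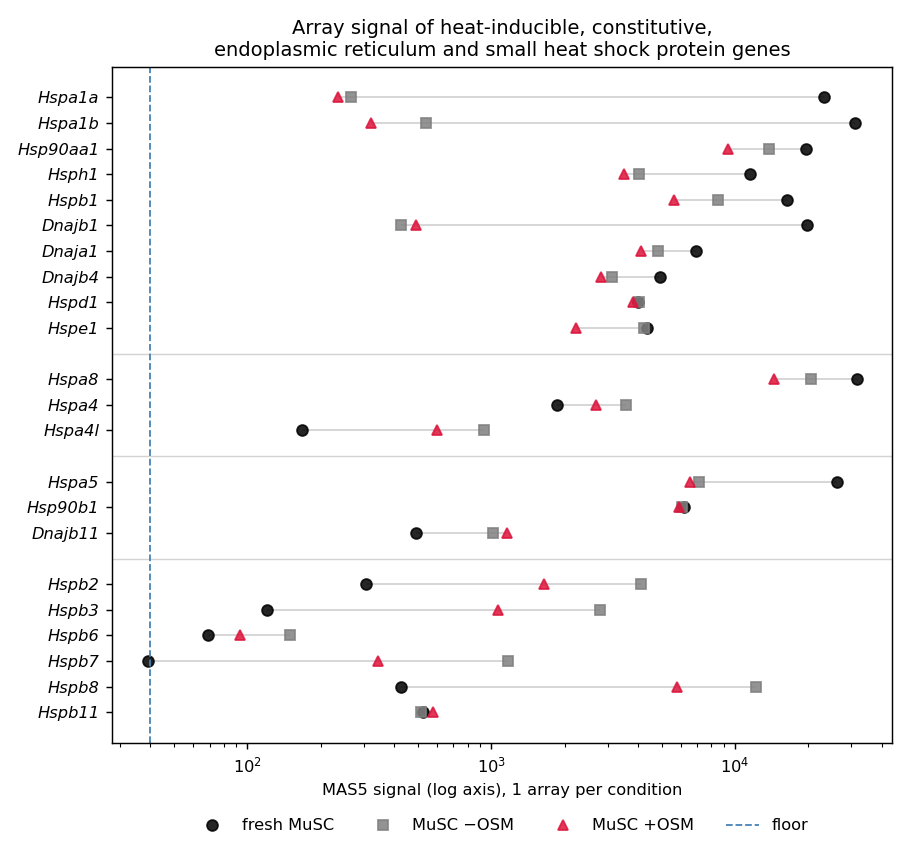
MAS5 signal (log axis) on each array, with the floor of 40 as a dashed line. From top to bottom are heat-inducible genes, then Hspa8, Hspa4 and Hspa4l, then ER genes and small heat shock protein genes. The title calls the second block constitutive, but Hspa4l is not on the constitutive list. Fresh MuSC (black circles) lie far to the right for Hspa1a, Hspa1b and Dnajb1 and far to the left for Hspb2, Hspb3, Hspb7 and Hspb8, where the +OSM culture (red triangles) lies between fresh MuSC and the −OSM culture (grey squares).

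Small heat shock proteins had the largest median difference of any role between fresh MuSC and the −OSM culture. By the probe set used for each gene, they were the only role with members past 2-fold with OSM. In other roles, single probe sets not used for the gene passed it, lower for Hspa4 and higher for Hspa12a and Dnajc10. Of 7 small heat shock proteins measured, 5 were lower in fresh MuSC than in the −OSM culture and 0 higher (median log2 ratio −3.74), against 15.0% and 20.4% of all genes. With OSM 4 were lower than without (median −1.09), against 4.39% of all genes. Hspb2, which pairs with Hspb3 in muscle cells, had signals of 307 in fresh MuSC, 4097 in the −OSM culture and 1652 in the +OSM culture. Hspb3 had 121, 2788 and 1071. OSM thus went with signals 2.48-fold lower for Hspb2 and 2.60-fold lower for Hspb3, both still above fresh MuSC. Hspb8, which delivers damaged muscle proteins to autophagy together with Bag3, had 427, 12242 and 5761, or 28.7-fold lower in fresh MuSC and 2.12-fold lower with OSM. Hspb7, the cardiovascular small heat shock protein, had 39, 1171 and 342 and was at least 29.3-fold lower in fresh MuSC and 3.42-fold lower with OSM. The order was the same in all 4 genes, with the −OSM culture highest, the +OSM culture between and fresh MuSC lowest.

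The size of these differences varied with the probe set and the scaling. Hspb8 had a second probe set at 180, 4448 and 2169 and a weak one at 154, 206 and 253. Hspb7 had others at 41, 217 and 121 and at 3, 42 and 10, and with the median of its probe sets the ratio with OSM was −0.84 on the log2 scale. With arrays centred on their medians Hspb8 was at −0.92 with OSM, under 2-fold. Hspb2 and Hspb3 have 1 probe set each. Hspb6 (HSP20) had 69, 149 and 93, the same order at lower signals, and 2.16-fold lower in fresh MuSC. Hspb11, a subunit of cilia transport, had 525, 517 and 575, and Hspb1 ran the other way, as given above. The neighbouring gene of Hspb2, Cryab, encodes the small heat shock protein αB-crystallin and had 5350, 19551 and 11558, in the order of the 4.

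Muscle fibre markers moved with the small heat shock proteins, as 9 of 10 were lower in fresh MuSC than in the −OSM culture (median log2 ratio −3.19) and 4 of 10 were lower with OSM (median −0.77). Of all genes 15.0% and 4.39% were lower. Myog, a transcription factor of differentiating muscle cells, had 1530, 21248 and 14369 in fresh MuSC, the −OSM and +OSM cultures, and the myosin gene Myh1 had 2383, 21628 and 8264. The part of differentiated cells in the values of Hspb2, Hspb3, Hspb7 and Hspb8 was not tested. In promoter windows the E-box CAGCTG, a motif read by myogenic factors that was searched after the values were seen, lay in 0 of 7 small heat shock protein genes and in 18.3% of all genes. With so few genes this count says little, and other E-box forms and bases outside the windows were not searched. Whether myogenic factors act on these genes was not tested.

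J proteins of the cytosol and nucleus other than the heat-inducible ones showed few 2-fold differences. Dnajb6, which keeps polyglutamine proteins from aggregating, had signals of 2207 in fresh MuSC, 1088 in the −OSM culture and 1699 in the +OSM culture, yet another of its probe sets gave 415, 1012 and 664. Dnaja2, a partner of Hspa8 in refolding, had 3189, 6529 and 5857, and here too 1 probe set opposed the others at 786, 193 and 160. Neither gene has a settled direction. Dnaja4 had 859, 576 and 311, lowest with OSM, and was 2.76-fold lower in the +OSM culture than in fresh MuSC, although with arrays centred on their medians that log2 ratio was −0.74. Dnajb5 had 167, 431 and 287, and Dnajc2, which binds the ribosome with Hspa14, had 454, 1124 and 732. These were 2.58-fold and 2.48-fold lower in fresh MuSC. Another probe set of Dnajb5 gave 127, 116 and 81, and of the others of Dnajc2 1 gave 190, 422 and 413 and 1 gave 46, 41 and 28, so the direction of Dnajb5 is not settled either and that of Dnajc2 rests on its brighter probe sets.

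J proteins of special tasks differed by less than 2-fold between the cultures. Dnajc5 (cysteine string protein), of secretory vesicles, had 531, 968 and 1120 in fresh MuSC, the −OSM and +OSM cultures. Dnajc9, a histone chaperone, had 380, 484 and 763, the highest ratio of any member with OSM at 1.58-fold. Dnajc21, of ribosome assembly, had 661, 970 and 562, and Dnajc8, of the spliceosome, had 1667, 2566 and 1702. Dnajc21 was lowest with OSM and Dnajc8 lay near its fresh signal there, both under 2-fold. Dnajc27 had 144, 78 and 74, highest in fresh MuSC. Dnajc24, of diphthamide synthesis, had 99, 188 and 133, and Dnajc12 had 82, 138 and 147. Fresh MuSC were lowest for these. Dnajc13, an endosomal J protein, had 892, 757 and 856. Dnajc14 had 354, 428 and 550. Dnajc17, of the spliceosome, had 1025, 820 and 898. By the probe set used and as scaled by the authors, none of the 3 reached 2-fold on any pair of arrays. With arrays centred on their medians Dnajc14 was 2.57-fold higher in the +OSM culture than in fresh MuSC. A weak probe set of Dnajc13 gave 120, 18 and 38, above the floor in fresh MuSC alone. Dnajb2 and Dnajc7, which complete the cytosolic J proteins, had 410, 617 and 473 and 1518, 2045 and 1677.

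A set of 10 members stayed under the floor on every array, namely Dnajb3, Dnajb7, Dnajb8, Dnajc22, Dnajc5b, Dnajc5g, Dnajc6, Hspa12b, Hspa1l and Hspb9. Dnajb13 was above it in fresh MuSC alone, at 56. Several of these are known from testis or brain.

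**Figure D5:**
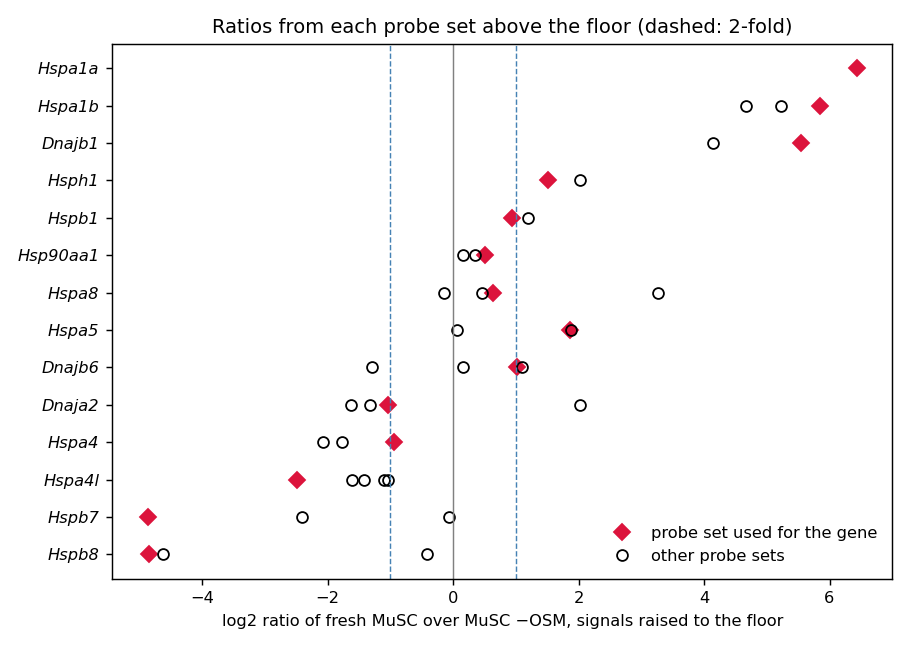
Log2 ratio of fresh MuSC over the −OSM culture for each probe set above the floor of 14 members, with the probe set used for the gene as a red diamond, the others as open circles and 2-fold as dashed lines. The probe sets of Hspa1b and Dnajb1 all lie past 4, while those of Hspa8, Dnajb6 and Dnaja2 lie on both sides of 0.

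Other probe sets of the same genes read the same RNA again, which is not replication. For members higher in fresh MuSC than in the −OSM culture, 11 of 12 other probe sets had the same sign and 8 were past 2-fold. For the lower members 11 of 14 had the same sign and 9 were past 2-fold. For the members lower with OSM the number was small, with 3 of 4 of the same sign and 1 past 2-fold. A probe set opposed by 2-fold in Dnajb6 and Dnaja2 alone.

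Among genes that work with the chaperones, Bag3 and Unc45b differed in opposite directions between fresh MuSC and the −OSM culture. Bag3, the partner of Hspb8 and HSP70 and itself known as heat-inducible, had signals of 4157 in fresh MuSC, 1486 in the −OSM culture and 720 in the +OSM culture, and was 2.06-fold lower with OSM. Of 16 cochaperones of HSP70, 2 were higher and 3 lower in fresh MuSC than in the −OSM culture. As scaled by the authors, 0 were higher and 3 lower with OSM, namely Bag3, Bag6 (294, 389 and 173) and Hspbp1 (159, 189 and 89). Their log2 ratios of −1.05, −1.17 and −1.09 were close to the limit, on 1 probe set each. Centring on array medians, which shifts all genes of an array alike, moved Hspb8 from −1.09 to −0.92. These 3 calls are therefore not settled. Bag1, an exchange factor, had 1179, 3948 and 2625. Of 12 cochaperones of HSP90, 2 were higher and 4 lower in fresh MuSC, and 0 differed with OSM. Of all measured genes 20.4% were higher and 15.0% lower in fresh MuSC than in the −OSM culture, and 6.07% and 4.39% with OSM. Unc45b, which folds muscle myosin, had 252, 2705 and 1628, while its general relative Unc45a had 1422, 468 and 546. Chordc1 had 856, 4124 and 3232, and Ahsa2, a relative of the ATPase activator of HSP90, had 300, 1251 and 1531. Unc45a alone of these was higher in fresh MuSC. The cytosolic chaperonin TRiC, which folds actin and tubulin, had 5 of 8 subunits lower in fresh MuSC and 0 higher, with a median log2 ratio of −1.18, and Cct8 had 1883, 5027 and 3943. Of the heat shock factor genes and their regulators, 3 were measured and all were lower in fresh MuSC. Hsf2 had 75, 377 and 340, Hsf2bp 60, 298 and 174 and the inhibitor gene Hsbp1 1268, 3010 and 3030, and Hsf1 had no probe set named in the annotation used here.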

How the data were processed

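RNA was amplified with 3′ IVT Express reagents and hybridized to Affymetrix MOE_430_2 arrays, with 1 array per condition. The authors deposited MAS5 signal intensity on a linear scale. MAS5 is named in the submitters' processing notes, with no version given in the sources used here. From 45037 probe sets, 64 control probe sets left out, 34945 that name 1 gene were kept. Python 3.11.15 was used for ratios, along with the libraries pandas 2.3.3, numpy 2.4.6 and scipy 1.17.1, and the steps were tested on simulated data. Without replicates no test, SD or p-value was possible, and the precision is limited by the number of arrays.

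The members, gene lists and alternatives were chosen with earlier results of these data known. Named are all measured members of the heat-inducible, HSP70, HSP110, HSP90, small heat shock protein, ER and mitochondrial lists, and of the other members the 5 highest and 5 lowest in each comparison among those reaching a signal of 100 on 1 array compared. Up to 4 genes per list of partners were named, with Fos, Egr1, Atf3 and 4 satellite cell markers. Cd34, Myog, Myh1, Bag6, Hspbp1, Dnajb2, Dnajc7 and genes under the floor were added after their values were seen. Alternatives were the scaling, the floor, the probe set, the fold threshold and a narrower heat-inducible list.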

Additional observations from a re-analysis of the deposited data

How the results depend on the processing

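With arrays centred on their medians, which shifts all genes of an array alike, the median log2 ratio of members was −0.012 in the +OSM culture over the −OSM culture, −0.82 in fresh MuSC over the −OSM culture and 0.69 in the +OSM culture over fresh MuSC, and that of all genes was 0.15, −0.37 and 0.57. Members lower in fresh MuSC than in the −OSM culture became 24 (28.1% of all genes were lower), and in the +OSM culture over fresh MuSC 24 were higher and 5 lower (33.7% and 8.23% of all genes). The median of members less that of all genes was −0.18, −0.40 and 0.13 as scaled by the authors and −0.16, −0.45 and 0.12 after centring. With quantile normalization, floors of 20 and 100 or a signal of at least 100, all 6 counts of members stayed within 1.5 times. The widest shift was 11 to 16 members lower in fresh MuSC than in the −OSM culture after quantile normalization, against 19.5% of all genes. A floor of 20 moved the median of members in that comparison from −0.26 to −0.04. In the +OSM culture over fresh MuSC, quantile normalization put Hspa8 at −0.05, Hsp90aa1 at −0.29 and Hspa2 at −0.92, all under 2-fold. At 1.5-fold, 2 members were higher and 15 lower with OSM (14.6% and 13.1% of all genes), 15 higher and 23 lower in fresh MuSC against the −OSM culture (31.8% and 24.3%), and 16 higher and 17 lower in the +OSM culture against fresh MuSC (23.8% and 29.6%). At 3-fold, the same counts were 0 and 1 (2.26% and 1.21%), 6 and 6 (10.8% and 7.42%), and 6 and 6 (6.08% and 8.41%). Taking the median of all probe sets gave 1 member higher with OSM (Dnajc10, log2 ratio 1.11) and reversed the sign of Dnajb6, to −0.83, and of Dnajb5, to 0.13, in fresh MuSC over the −OSM culture. Plain probe sets (those with names ending in _at alone) gave 1 member higher with OSM (Hspa12a, 1.19), put Dnajb5 at 0.13 as well, Dnajc2 at 0.17 and Hspa8 at 3.26, and the gap between heat-inducible and constitutive medians with OSM at −0.08. The cause of these shifts was not tested. No paired analysis was possible because each condition is 1 array. Without replicates, ratios near 2-fold cannot be told from array error, and members under the floor cannot be ranked.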
